A study of Mus musculus with 66 samples.

Results

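The plasma miRNome described here is that of 5 tumor-free C3H mice, the mice whose liver histology was labelled non-HCC (without hepatocellular carcinoma). They are 5 of the 66 plasma samples of the series, and every one of them was analysed. All 5 were males of the inbred strain C3H, sampled more than 12 months after radiation according to the labels and at 0 days before tumor detection, a field the labels also fill for tumor-free mice. Tumor-bearing C3H mice carry the same entries for sex, months and days, and the labels give no age or radiation dose and do not state for each mouse whether it was irradiated. Blood was drawn by cardiac puncture at necropsy into EDTA, plasma was cleared of cells and platelets by repeated centrifugation and screened for free hemoglobin, and RNA was isolated from 50 µl. Barcodes in the libraries allow copies of a molecule to be merged, and the unit of count is therefore the UMI (unique molecular index), 1 captured molecule rather than 1 read. A share below is the percentage of all miRNA UMIs of a mouse. The mice are named non-HCC mouse 1 to 5.

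A miRNA is cut from a hairpin precursor, whose 5p and 3p strands are its arms. Usually 1 arm is loaded into an Argonaute protein and kept, and bases 2 to 8 of that arm, the seed, pair with target mRNAs. MiRNAs with the same seed form a family with shared targets. In plasma, miRNAs are protected by Argonaute, lipoproteins and vesicles and come from blood cells, endothelium and organs. Those released by liver cells reach the blood through a porous endothelium. Ligation and reverse transcription do not capture all miRNAs equally, so that a share is a share of captured molecules. Fewer cells of a type and fewer molecules released per cell cannot be told apart in plasma.

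The mature sequences that carry most of these UMIs are shown from 5′ to 3′, with the seed in capitals, to make the families visible. They were taken from RefSeq with its build GRCm38.p6. The table of sequences matched 1566 of the 1826 miRNAs listed, and these held 79.2% of the UMIs on average (73.5% to 84.7% over the mice). MiR-486a, miR-486b and miR-30d are not among them. The first group has the miR-16 seed, the second the let-7 seed, and the third the seeds of miR-25 and miR-93, whose hairpins lie side by side in the genome. The last group holds the erythroid miR-451a and single leaders of other families.

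miR-16-5p: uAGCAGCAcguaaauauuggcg
miR-15a-5p: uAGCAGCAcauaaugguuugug
miR-15b-5p: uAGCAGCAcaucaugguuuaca

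let-7i-5p: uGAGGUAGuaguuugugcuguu
let-7c-5p: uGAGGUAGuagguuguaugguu
let-7b-5p: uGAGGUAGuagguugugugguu
let-7a-5p: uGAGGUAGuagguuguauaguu
let-7g-5p: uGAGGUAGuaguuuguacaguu
let-7d-5p: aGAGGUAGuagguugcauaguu
let-7f-5p: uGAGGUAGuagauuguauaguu

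miR-25-3p: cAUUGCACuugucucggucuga
miR-92a-3p: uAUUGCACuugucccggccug
miR-93-5p: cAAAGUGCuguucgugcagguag
miR-20a-5p: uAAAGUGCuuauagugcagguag
miR-106b-5p: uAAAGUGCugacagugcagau

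miR-451a: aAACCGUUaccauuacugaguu
miR-21a-5p: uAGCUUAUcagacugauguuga
miR-30e-5p: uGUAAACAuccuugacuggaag
miR-26b-5p: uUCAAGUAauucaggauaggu
miR-26a-5p: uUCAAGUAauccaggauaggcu
miR-142a-3p: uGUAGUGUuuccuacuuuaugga
miR-223-3p: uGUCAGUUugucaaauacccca

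Between 10467560 and 13962539 miRNA UMIs were counted per mouse. The spike-in UniSP2, added to each plasma sample before isolation, gave 364466 to 731761 UMIs, so that 14.9 to 38.3 miRNA UMIs were counted per UniSP2 UMI, with mouse 5 highest. The other spike-in, UniSP4, gave only 504 to 867 UMIs, so that a mean of both spike-ins rests almost wholly on UniSP2. Per UniSP4 UMI, 13049.6 to 27703.5 miRNA UMIs were counted, again with mouse 5 highest. Of the 1826 miRNAs, 1114 to 1356 were above 0 in a mouse. No value from 1 to 9 occurs in the table, so that an entry of 0 stands for fewer than 10 UMIs, which allows a share of up to 7.16e-05% to 9.55e-05% depending on the mouse. The 878 miRNAs above 0 in all 5 mice held 99.95% of the UMIs, and 225 were at 0 in all 5. Between mice, the shares of these 878 miRNAs had Spearman correlations of 0.900 to 0.947, with mouse 1 against mouse 5 lowest. No pair of libraries was identical within sampling noise (chi-square per degree of freedom 112 to 1235).

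The plasma of tumor-free mice was dominated by very few miRNAs. MiR-16-5p, a miRNA of most cells that is plentiful in red cells, gave at least 26.1% of all UMIs in each mouse, and it was followed by the red cell miRNAs miR-486b-5p and miR-451a. Depending on the mouse, 3 to 5 miRNAs made up 50% of the UMIs, 35 to 38 made up 90% and 131 to 144 made up 99%. The 10 miRNAs with the highest mean share held 69.0% ± 2.45 (SD, n = 5) together, between 65.6% and 71.8%. Each mouse's own first 20 held 80.4% to 82.8%.

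MiR-16-5p took 28.6%, 26.1%, 27.9%, 28.7% and 26.7% of the UMIs of mice 1 to 5, with a mean of 27.6% ± 1.15 (SD, n = 5). Its share was close to level across the mice, as the lowest and the highest differed by 1.10-fold. Its UMIs per spike-in UMI (mean of both spike-ins) ranged from 8.52 to 20.4, or 2.40-fold. MiR-486b-5p took 14.4%, 11.5%, 17.0%, 13.9% and 9.39% (mean 13.2% ± 2.91). MiR-451a, which red cell precursors make in large amounts, took 6.71%, 7.42%, 6.57%, 6.33% and 8.07% (mean 7.02% ± 0.713). By share, mouse 5 was thus highest in miR-451a and lowest in miR-486b-5p, and mouse 3 was highest in miR-486b-5p. Set against the mean of both spike-ins, mouse 5 was highest in miR-486b-5p too, with 7.19 UMIs per spike-in UMI against 4.30 to 6.29 in the others.

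Below these 3 came let-7i-5p, a member of the let-7 family that restrains growth genes, with 3.31%, 5.30%, 3.25%, 3.72% and 5.77% (mean 4.27% ± 1.18). Mice 2 and 5 were above the other 3 in let-7i-5p without overlap. MiR-25-3p averaged 3.95% ± 0.379, miR-93-5p 3.67% ± 0.307 and miR-486a-5p 3.18% ± 0.801. Let-7c-5p (2.08% ± 0.197), miR-21a-5p (2.01% ± 0.615), miR-92a-3p (1.95% ± 0.296) and let-7b-5p (1.88% ± 0.108) lay close together. MiR-21a-5p, a miRNA of most tissues that rises with inflammation, ranged from 1.24% in mouse 3 to 2.95% in mouse 5. The remaining 9 of the first 20, with their mean shares, were miR-30e-5p (1.58%), miR-191-5p (1.42%), the leukocyte miRNA miR-142a-3p (1.39%), miR-30d-5p (1.21%), miR-26b-5p (1.09%), the cartilage-rich miR-140-3p (1.07%), the myeloid miR-223-3p (0.949%), miR-30a-5p (0.924%) and let-7a-5p (0.900%).

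**Figure D1:**
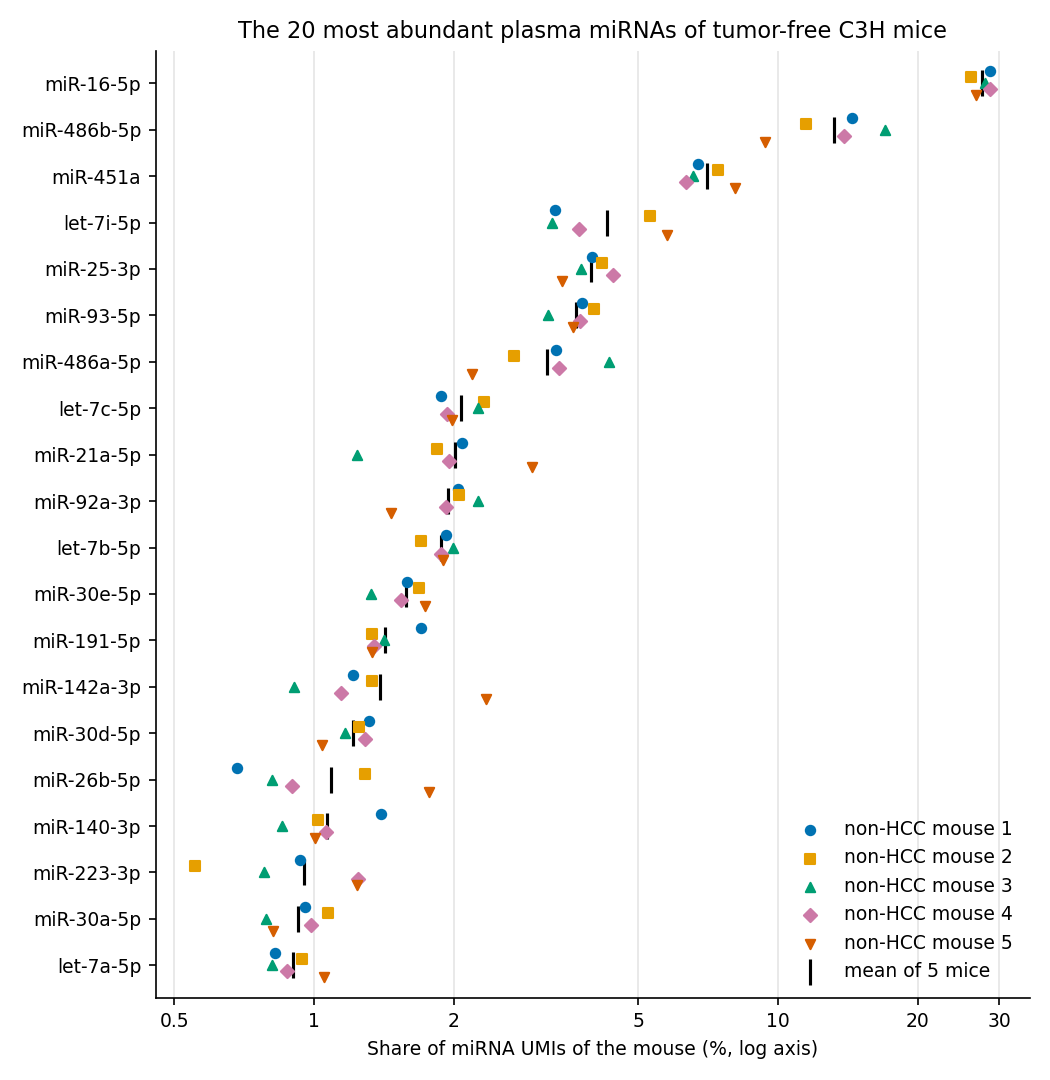
The share of miRNA UMIs (percent, log axis) of the 20 miRNAs with the highest mean, with 1 symbol per non-HCC mouse and a black bar for the mean of the 5 mice. MiR-16-5p lies at 26.1% to 28.7%, apart from the other miRNAs, while miR-142a-3p and miR-26b-5p spread from 0.907% to 2.35% and from 0.682% to 1.77%.

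The order of the first 4 held in all 5 mice: miR-16-5p was above miR-486b-5p, miR-486b-5p above miR-451a, and miR-451a above let-7i-5p. Of the 19 pairs of neighbours among the 20 miRNAs, 5 kept their order in every mouse; the other pairs to do so were miR-486a-5p above let-7c-5p and let-7b-5p above miR-30e-5p. For these 5 pairs the exact paired permutation test over the 5 mice gave p = 0.0625 (two-sided), the smallest p that 5 mice allow, so that no order can pass 0.05. The order tested was itself set by the mean shares of these mice. A pair that keeps its order in all 5 mice has this p by construction, so that it adds nothing to the order seen. Let-7i-5p and miR-25-3p traded places, as let-7i-5p was higher in 2 of 5 mice (exact permutation p = 0.75). In each of the 14 pairs without a fixed order the exact permutation p was between 0.25 and 0.938.

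Summed over shared seeds, the miRNAs with a sequence formed 1313 families, of which 1145 held a single miRNA. The 10 largest families held 65.6% of the UMIs on average (61.5% to 70.6%). The miR-16 seed (AGCAGCA) came first with 28.0% ± 1.07 (SD, n = 5), the let-7 seed (GAGGUAG) second with 11.4% ± 1.98, and miR-451a, alone with its seed, next with 7.02%. The miR-25 seed (AUUGCAC) held 5.92% ± 0.580, the miR-93 seed (AAAGUGC) 4.07% ± 0.331 and the miR-30 seed (GUAAACA) 2.76% ± 0.274. The families of miR-21a (2.01%), miR-26 (1.69%), miR-191 (1.42%) and miR-142a-3p (1.39%) closed the list. MiR-486a-5p, miR-486b-5p and miR-30d-5p had no sequence and were not placed in families. The miR-30 sum therefore lacks miR-30d-5p (1.21%), a miR-30 miRNA by its name, and is a lower bound. MiR-486b-5p alone outweighed the let-7 family on average and in mice 1, 3 and 4. In mouse 2 the let-7 family was higher (13.0% against 11.5%), as it was in mouse 5 (14.0% against 9.39%).

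The families differed in how evenly their members shared the UMIs. In the miR-16 family, with 10 members listed, miR-16-5p held 98.5% of the family's UMIs, miR-15b-5p 0.946% and miR-15a-5p 0.329%. In mice 1 to 5 miR-15b-5p had shares of 0.202%, 0.261%, 0.220%, 0.207% and 0.434% of all UMIs, highest in mouse 5. MiR-195a-5p, another member, was at 0.0277% to 0.0295% and varied least by share of all ranked miRNAs. The miR-93 family was likewise held by its leader, with 90.2% on miR-93-5p, 7.26% on miR-20a-5p and 1.02% on miR-106b-5p. In the family of miR-25, miR-25-3p held 66.7% and miR-92a-3p 32.9%, and miR-367-3p, a miRNA of pluripotent cells, was at 0 in all 5 mice.

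The let-7 family was the most divided of the large ones, with all 11 members listed above 0 in all 5 mice. Let-7i-5p held 37.6% of it, let-7c-5p 18.3%, let-7b-5p 16.5%, let-7a-5p 7.92%, let-7g-5p 7.54%, let-7d-5p 5.94% and let-7f-5p 5.79%. Its summed share was 9.59%, 13.0%, 10.0%, 10.3% and 14.0% in mice 1 to 5, with mice 2 and 5 above the other 3. Let-7f-5p took 0.268%, 1.00%, 0.331%, 0.298% and 1.39%, so that mice 2 and 5 again stood above the others, by a wider margin. Let-7a-5p ranged only from 0.812% to 1.05%, and the ratio of let-7a-5p to let-7f-5p was 3.08, 0.940, 2.45, 2.94 and 0.754. Let-7b-5p stayed between 1.70% and 1.99%.

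**Figure D2:**
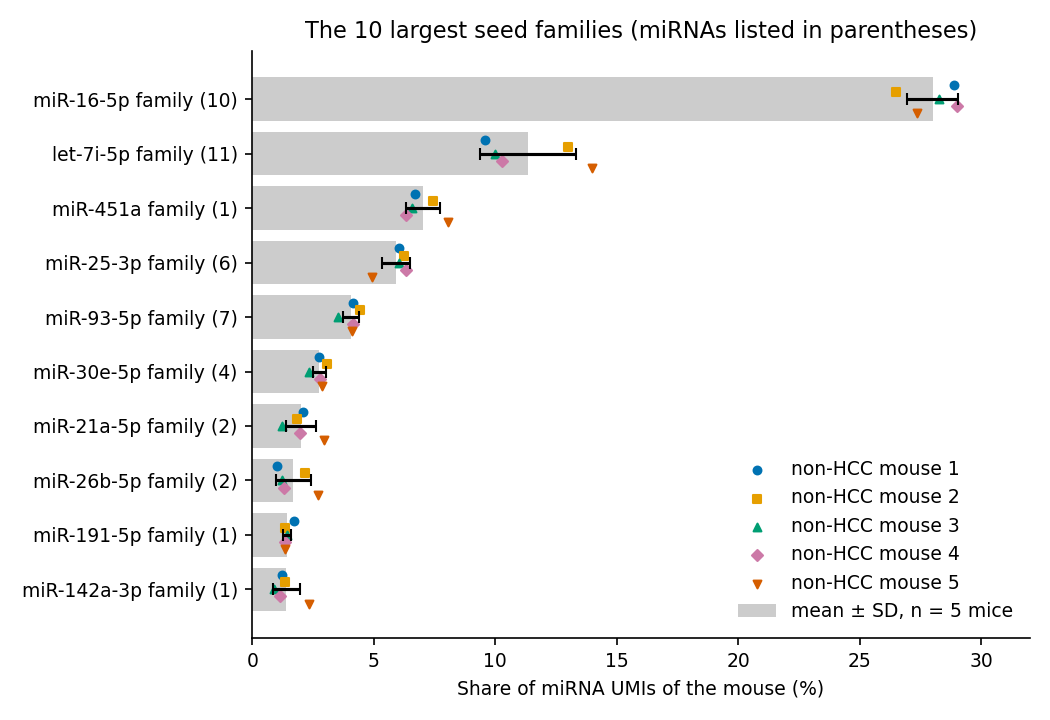
The summed share of miRNA UMIs (percent, linear axis from 0) of the 10 largest seed families, named by their leading miRNA, with bars for the mean, black lines for the SD over 5 mice, and 1 symbol per mouse. The miR-16-5p family is at 28.0%, and the 5 mice of the let-7i-5p family run from 9.59% to 14.0%.

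Members of a family can be hard to tell apart by alignment. Of the 17 miRNAs among the first 20 with a sequence, 6 had another listed miRNA within 2 bases: let-7i-5p, let-7c-5p, let-7b-5p, let-7a-5p, miR-30e-5p and miR-30a-5p. Let-7a-5p had 7 such neighbours and let-7c-5p had 5, while miR-16-5p, miR-451a, miR-25-3p, miR-93-5p and miR-92a-3p had none. MiR-486a and miR-486b are listed as separate miRNAs, but the annotation has 1 gene, Mir486 (GRCm38, chr8:23142555-23142682, plus strand, in an intron of Ank1 on the same strand). The ratio of miR-486b-5p to miR-486a-5p was 4.35, 4.25, 3.93, 4.11 and 4.28 in mice 1 to 5, and that of miR-486a-3p to miR-486b-3p was 1.43 to 1.48. How the UMIs were divided between them is uncertain.

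The letters of the captured miRNAs differed from those of the list as a whole. A first base of U, which Argonaute favours, was held by 69.9% to 71.8% of the UMIs with a sequence and by 40.3% of the 1566 miRNAs. MiR-16-5p, with 27.6% of all UMIs, begins with U and weighs heavily in the first value, and none without it is given. The GC content weighted by UMIs was 43.4% to 44.9%, against 52.5% over the miRNAs unweighted. The mean length weighted by UMIs was 22.04 to 22.05 bases, against 21.94 unweighted.

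Among 11 lists of cell type miRNAs with 55 members in all, the red cell list held the largest share by a wide margin. Whether the UMIs of a list came from the cells it is named for was not tested. The 8 red cell miRNAs (miR-451a, both arms of miR-144, miR-486a and miR-486b, and miR-363-3p) held 25.6%, 22.6%, 29.4%, 24.7% and 20.9% of the UMIs of mice 1 to 5, a mean of 24.6% ± 3.24 (SD, n = 5). MiR-16-5p, which most cells make, was kept apart; counted with them it raised the mean to 52.2% (47.6% to 57.3%). All 8 were above 0 in all 5 mice, and 53.8% of the list's UMIs came from miR-486b-5p. The UMI ratio of miR-451a to miR-23a-3p was 13.9, 20.8, 16.1, 12.0 and 21.1, with a mean log2 of 4.03. These 2 miRNAs form a common index of red cell rupture, in which miR-23a-3p is the red cell independent partner. The values here are ratios of UMIs, and no limit of that index was applied to them. MiR-486 is also made in muscle, and its part in the red cell list cannot be separated from that source here.

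MiR-144 and miR-451a are cut from 1 erythroid transcript. Their shares were all highest in mouse 5 and second in mouse 2, but those of miR-144 ranged far more widely. MiR-144-3p took 0.0958%, 0.178%, 0.103%, 0.127% and 0.392%, with mouse 5 far above mouse 2, the next. MiR-144-5p took 0.0193%, 0.131%, 0.0346%, 0.0338% and 0.174%, so that mice 2 and 5 were above the other 3. The ratio of miR-451a to miR-144-3p was 70.1, 41.7, 63.6, 49.9 and 20.6, a 3.40-fold range, while miR-451a itself ranged 1.27-fold. The ratio of miR-16-5p to miR-451a ranged from 3.31 to 4.53.

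The myeloid and platelet list came second by mean share. The 4 myeloid and platelet miRNAs held 2.19%, 2.02%, 1.75%, 2.44% and 3.90% (mean 2.46% ± 0.844), with mouse 5 above the others. MiR-142a-3p, made in all blood lineages, gave 56.5% of that sum. MiR-223-3p, the granulocyte and platelet miRNA, took 0.932%, 0.555%, 0.780%, 1.24% and 1.24%, lowest in mouse 2. The 4 miRNAs of the lymphoid list held 0.665% ± 0.117 (0.555% to 0.858%), mostly from miR-146a-5p (0.372% ± 0.0727) and the mature lymphocyte miRNA miR-150-5p (0.277% ± 0.121). Whether miR-146a-5p, with 55.9% of that list, came from lymphoid cells was not tested. MiR-155-5p, which activated lymphocytes and macrophages make, was at 0.00978% to 0.0260%.

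Both arms of the endothelial miR-126a, from a site within Egfl7, held 0.703%, 1.58%, 0.818%, 0.829% and 0.701% (mean 0.927% ± 0.371). By share mouse 2 stood apart, with 1.32% for miR-126a-3p against 0.509% to 0.661% in the other 4, whereas per spike-in UMI the list was at 0.634 in mouse 2 and 0.536 in mouse 5, against 0.209 to 0.376 in the others. The 7 liver miRNAs held 0.983%, 1.16%, 1.07%, 0.910% and 1.04%, a mean of 1.03% ± 0.0919, and by share their sum had the lowest CV (coefficient of variation over the mice) of the 11 lists, 8.91%. Per spike-in UMI the liver list had a CV of 42.5%, and the pancreas list was the most even, with 11.7%. Inside that sum the members were less even. MiR-122-5p, by far the main miRNA of hepatocytes, took 0.211%, 0.326%, 0.424%, 0.180% and 0.221% (mean 0.272% ± 0.101) and held rank 41 among all miRNAs. MiR-192-5p, shared by liver, gut and kidney, led the liver list with 0.407% ± 0.0586, and the ratio of miR-122-5p to miR-192-5p ran from 0.448 to 1.11. MiR-101b-3p (0.253%), miR-194-5p (0.0965%) and miR-802-5p (0.00215%) followed. Whether the UMIs of the liver list, those of miR-101b-3p among them, came from liver cells was not tested.

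By share, muscle miRNAs spread more widely between mice than any other list but the near-absent testis list, with a CV of 57.8%. Per spike-in UMI their CV was 50.4%, below the myeloid and platelet list (81.9%), the lymphoid list (62.2%) and the nervous system list (50.8%). The 7 members held 0.242%, 0.384%, 0.197%, 0.124% and 0.0778%, so that mouse 2 was 4.93-fold above mouse 5. MiR-133a-3p (0.0990% ± 0.0590) and miR-1a-3p (0.0877% ± 0.0521), which skeletal and heart muscle share, gave most of it. The heart miRNA miR-208a-3p was at 0.00155% to 0.00441% and the skeletal muscle miRNA miR-206-3p at 0.00105% to 0.00444%. All 7 muscle miRNAs were highest in mouse 2. MiR-208b-3p and miR-499-5p, both encoded within myosin heavy chain genes, ranged from 0.000355% to 0.00212% and from 0.00274% to 0.00817%.

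The lists of other tissues held small shares. The stroma list held 0.347% ± 0.0798, with the joined entry miR-199a-3p and miR-199b-3p highest in mouse 4 (0.285%) and miR-143-3p highest in mouse 2 (0.221%). The 6 epithelial miRNAs, mainly the miR-200 family, held 0.187% ± 0.0237. The pancreas list held 0.0538% ± 0.0145, of which 97.3% was miR-375-3p, a miRNA of islets and other endocrine cells. The nervous system list held 0.228% ± 0.0463, of which 97.5% was miR-128-3p, which blood cells also make, and the neuron miRNA miR-124-3p had 12 to 22 UMIs per mouse. None of the 5 testis miRNAs was above 0 in all mice, and in mouse 5 all 5 were at 0. Together the 11 lists and miR-16-5p covered 58.3% of the UMIs (54.9% to 62.5%), and 41.7% belonged to miRNAs in no list, let-7, miR-25-3p and miR-93-5p among them.

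**Figure D3:**
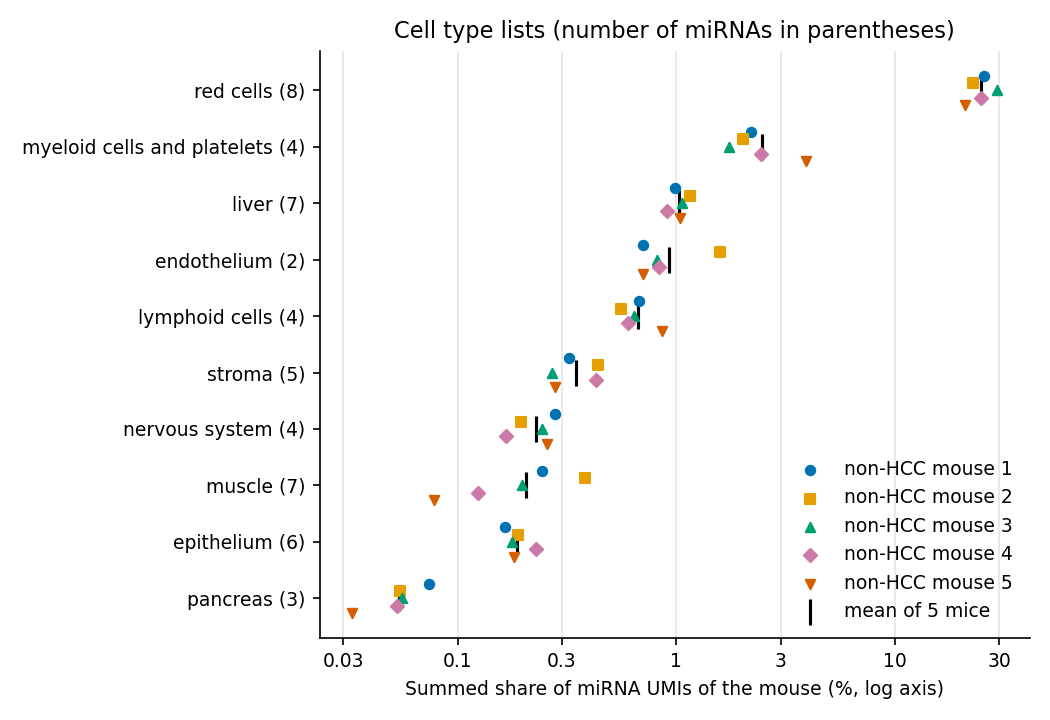
The summed share of miRNA UMIs (percent, log axis) of 10 cell type lists, with the number of miRNAs in parentheses, 1 symbol per mouse and a black bar for the mean. Red cells lie at 20.9% to 29.4%; the liver list runs only from 0.910% to 1.16%, the muscle list from 0.0778% to 0.384%. The testis list, at 0 in mouse 5, is left out.

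MiRNAs cut from 1 transcript had shares far apart. The 3 hairpins in Mcm7 (GRCm38, chr5:138165321-138165818, minus strand) span 498 bases. Mir25 and Mir93 overlap exons of annotated Mcm7 transcripts and Mir106b lies in an intron, all on its strand. Their leading miRNAs held 3.95% (miR-25-3p), 3.67% (miR-93-5p) and 0.302% (miR-106b-3p). The ratio of miR-25-3p to miR-93-5p was 0.946 to 1.18, whereas miR-25-3p was 75.8 to 117 times as high as miR-106b-5p. MiR-106b-5p is the lesser arm, with 12.2% of the UMIs of its hairpin, so that this ratio also holds the arm balance of miR-106b. In Mir17hg (chr14:115043671-115044506, plus strand for its 6 hairpins), miR-92a-3p reached 1.95%, miR-20a-5p 0.296%, miR-19b-3p 0.0679%, miR-17-5p 0.0504%, miR-18a-5p 0.0233% and miR-19a-3p 0.0219%. MiR-92a-3p and miR-19b-3p are each encoded by 2 genes, so that their UMIs are not of this transcript alone.

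MiR-16-5p also has 2 genes, Mir16-1 (chr14:61631880-61631972, minus strand, overlapping an exon of the noncoding gene Dleu2) and Mir16-2 (chr3:69009902-69009996, plus strand, in an intron of Smc4). Each lies beside a miR-15 gene. The UMIs of miR-16-5p cannot be assigned to either gene, but the opposite arms differ: miR-16-2-3p took 0.115% ± 0.00754 and miR-16-1-3p 0.00276% ± 0.00111. MiR-16-5p was 191 to 459 times as high as miR-15a-5p and 61.6 to 141 times as high as miR-15b-5p, lowest for both in mouse 5.

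Which arm of a hairpin was kept was tested on the UMI counts of both arms of each mouse by the quasi-likelihood test of edgeR, in which each mouse is a block. Where a miRNA has several genes, as miR-16, let-7c and miR-92a do, the arms of all its genes were summed under 1 hairpin name. Entries with joined names were left out. Both arms were listed for 703 hairpins, and 590 had more than 10 UMIs on at least 1 arm in at least 3 mice. A hairpin could thus enter through its higher arm alone. In 80 of those tested the lower arm was at 0 in all mice, so the counts called depend on this filter. At an adjusted p under 0.05 the 5p arm was higher in 173 (29.3% of those tested) and the 3p arm in 130 (22.0%), so that 51.4% had an arm called. Among the 135 hairpins with at least 1000 UMIs per mouse, 133 were called, 78 were higher on 5p and 57 on 3p, and 134 had the same arm higher in all 5 mice. In 102 of the 135 at least 95% of the UMIs lay on 1 arm, and the median share of the higher arm was 98.9%. Over all hairpins, 79.2% to 81.1% of the UMIs of a mouse were on 5p arms, and 71.1% to 73.1% without miR-16.

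Of the 15 hairpins with the most UMIs, 12 were higher on the 5p arm and 3, miR-25, miR-92a and miR-142a, on the 3p arm, each in 5 of 5 mice and past the threshold. For miR-16, the 5p arm held 99.6% of the UMIs in each mouse, with a fitted log2 ratio of 3p over 5p of -7.87 (SE 0.0702, edgeR adjusted p = 2.31e-09). The most one-sided of the 15 was let-7c, summed over its genes, with 37 to 62 UMIs on 3p against 205280 to 321783 on 5p. The fitted difference was 5228-fold. MiR-25 had 725 to 973 UMIs on 5p and 394464 to 595264 on 3p (log2 ratio 9.20, SE 0.109, edgeR adjusted p = 5.18e-09). MiR-92a had only 58 to 101 UMIs on 5p, against 204465 to 285355 on 3p.

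The hairpins of miR-25, miR-93 and miR-106b, neighbours in Mcm7, are shown as RNA with the higher arm in capitals (GRCm38.p6, minus strand), because they do not keep the same arm. Beside them stands miR-451a, whose stem is too short for Dicer and which is cut by Argonaute 2, so that its mature strand runs from the 5′ stem through the loop and no opposite arm is listed.

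Mir25, chr5:138165321-138165404: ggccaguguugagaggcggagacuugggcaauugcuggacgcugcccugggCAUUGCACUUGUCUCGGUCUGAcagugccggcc
Mir93, chr5:138165523-138165610: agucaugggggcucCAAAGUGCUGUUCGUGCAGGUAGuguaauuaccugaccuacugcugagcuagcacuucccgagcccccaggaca
Mir106b, chr5:138165737-138165818: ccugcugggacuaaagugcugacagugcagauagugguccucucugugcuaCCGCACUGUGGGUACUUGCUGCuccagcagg
Mir451a, chr11:78073170-78073241, plus strand: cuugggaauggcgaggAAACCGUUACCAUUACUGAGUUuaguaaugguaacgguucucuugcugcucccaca

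MiR-93 had 99.3% of its UMIs on 5p, whereas miR-106b had 12.2% ± 2.07 there (log2 ratio 2.86, SE 0.146, edgeR adjusted p = 2.62e-06). MiR-106b-5p is the arm with the miR-93 seed, so that this hairpin entered that family by its lesser arm, with 1.02% of the family's UMIs. In the paired erythroid hairpin miR-144 the balance was looser, with 27.2% ± 9.95 of the UMIs on 5p (log2 ratio of 3p over 5p 1.49, SE 0.275, edgeR adjusted p = 0.00367).

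Few abundant hairpins used both arms. MiR-486a had 84.3% to 86.3% on 5p and miR-486b 96.8% to 97.5%, under the limit on their separation given above. MiR-142a was the least stable of the 15, with 2.76%, 8.55%, 5.72%, 3.62% and 11.5% of its UMIs on 5p in mice 1 to 5. The 5 hairpins nearest to equal arms were miR-700, miR-345, miR-18a, miR-324 and miR-1306. MiR-700 had 588, 706, 512, 616 and 578 UMIs on 5p and 489, 555, 374, 592 and 613 on 3p, and its arms did not differ beyond the spread (log2 ratio -0.21, SE 0.164, edgeR adjusted p = 0.312). MiR-345 had 55.7% ± 3.11 on 5p, higher in 5 of 5 mice, but did not pass (edgeR adjusted p = 0.0929). The other 3 were called for 5p, with 64.4%, 64.8% and 67.6% of the UMIs on that arm.

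Among hairpins of the same miRNA number, miR-1b kept another arm than the more abundant miR-1a. MiR-1b, of the muscle miR-1 family, had 1621, 3458, 1472, 957 and 801 UMIs on 5p and 15 to 32 on 3p (log2 ratio -6.01, SE 0.386, edgeR adjusted p = 9.61e-06). MiR-1a, by contrast, had only 0.683% ± 0.0956 of its UMIs on 5p. The Mir1b gene overlaps Mir1a-2 on the opposite strand, and whether strand was used in counting is not given in the sources used here, so that the value of miR-1b is uncertain. Among the 93 abundant hairpins with sequences of both arms, the higher arm began with U in 53 and the lower arm in 15.

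**Figure D4:**
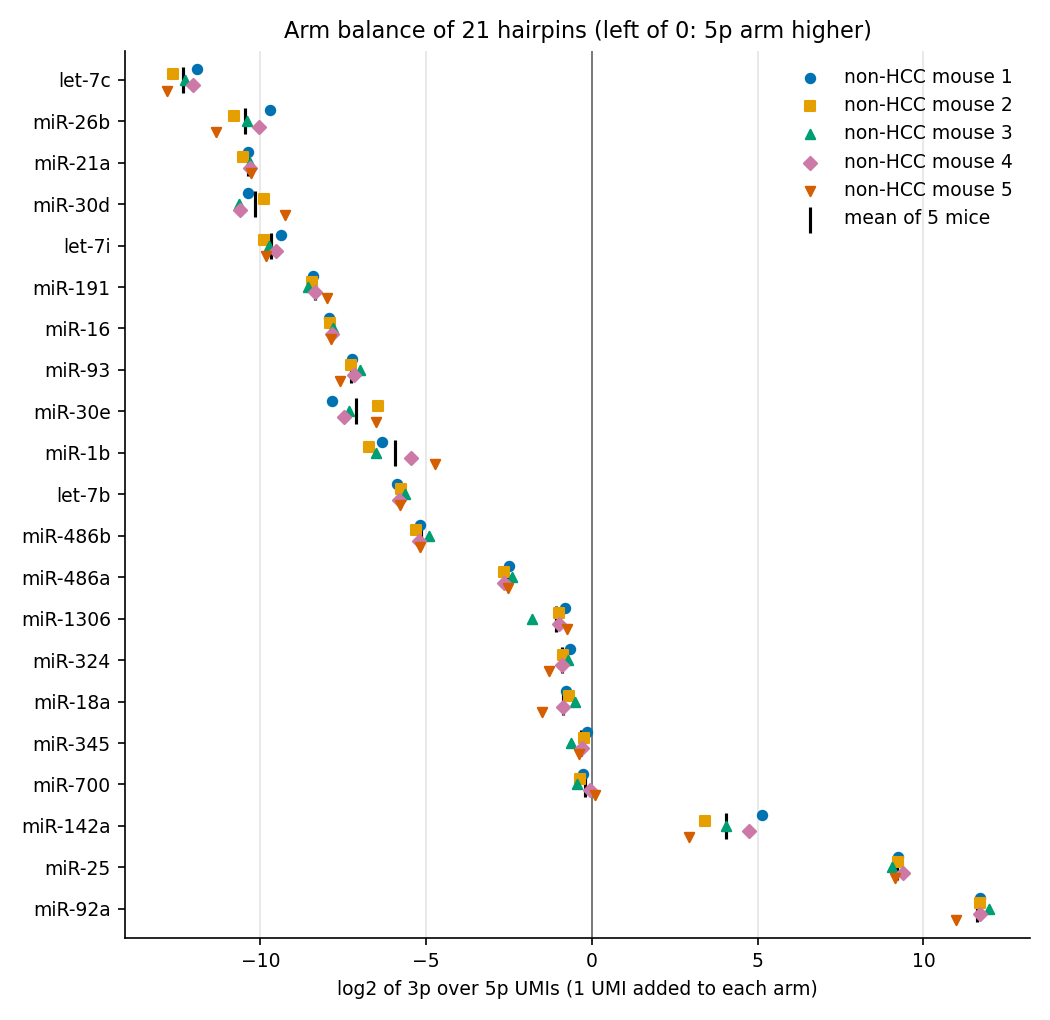
The log2 ratio of 3p over 5p UMIs, with 1 UMI added to each arm, of the 21 hairpins named, with 1 symbol per mouse, a black bar for the mean and a line at 0 for equal arms. MiR-25, miR-92a and miR-142a lie right of 0, 5 hairpins from miR-1306 to miR-700 lie close to it, and the rest lie left of it.

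Over the 156 miRNAs with a mean share of at least 0.01%, the CV over the 5 mice had a median of 18.8%, with quartiles of 13.6% and 31.4%. Counting alone gives a CV of 1.06% at the median and 2.74% at most. The highest mouse exceeded the lowest by more than 2-fold for 46 of the 156. By share, the 5 steadiest were miR-195a-5p (CV 2.29%, against 1.66% from counting), miR-16-5p (4.19%), miR-181a-5p (4.33%), let-7b-5p (5.75%) and miR-16-2-3p (6.56%). Per spike-in UMI the CV of miR-16-5p was 39.4%. In mouse 1, for example, miR-195a-5p was at 0.0277% with a 95% Wilson interval of 0.0267% to 0.0287%, which covers counting error only.

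The 5 most variable were miR-142a-5p (CV 101%), miR-205-5p (97.7%), miR-142b (92.6%), miR-144-5p (88.4%) and let-7f-5p (77.7%). MiR-142a-5p took 0.0344%, 0.125%, 0.0551%, 0.0430% and 0.306%, so that mouse 5 was highest and mouse 2 second, in the same order as for miR-144-5p and let-7f-5p. MiR-205-5p, a miRNA of skin and other layered epithelia, went another way, as mouse 4 was highest with 0.508%. MiR-142b overlaps the miR-142a gene on the opposite strand, so that its value carries the same doubt as miR-1b. Mouse 5 had the highest share of 50 of the 156 miRNAs and the lowest of 48, and mouse 3 had the lowest of 56.

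Let-7f-5p, which was highest in mouse 5, has a GC content of 31.8%, and the steady let-7b-5p one of 45.5%, as the sequences printed above show. Of the 156 ranked miRNAs, 132 have a sequence. The log2 share of a miRNA in a mouse, minus its mean over the mice, had a Spearman correlation with its GC content of 0.520, -0.258, 0.508, 0.366 and -0.598 in mice 1 to 5. These are correlations over miRNAs of 1 library, which share depth, capture and the mean subtracted, and they are given as a description. For the 15 miRNAs with a GC content below 35%, the median deviation was -0.44, 0.13, -0.53, -0.32 and 1.09 on the log2 scale. For the 21 with a GC content of 55% or more it lay between -0.10 and 0.08 in all mice. With the let-7 family left out, the correlations were 0.491, -0.218, 0.522, 0.337 and -0.579, and over the 102 miRNAs with a GC content of at least 40% they were 0.339, -0.182, 0.416, 0.107 and -0.418. Correlations with length were between -0.079 and 0.122.

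**Figure D5:**
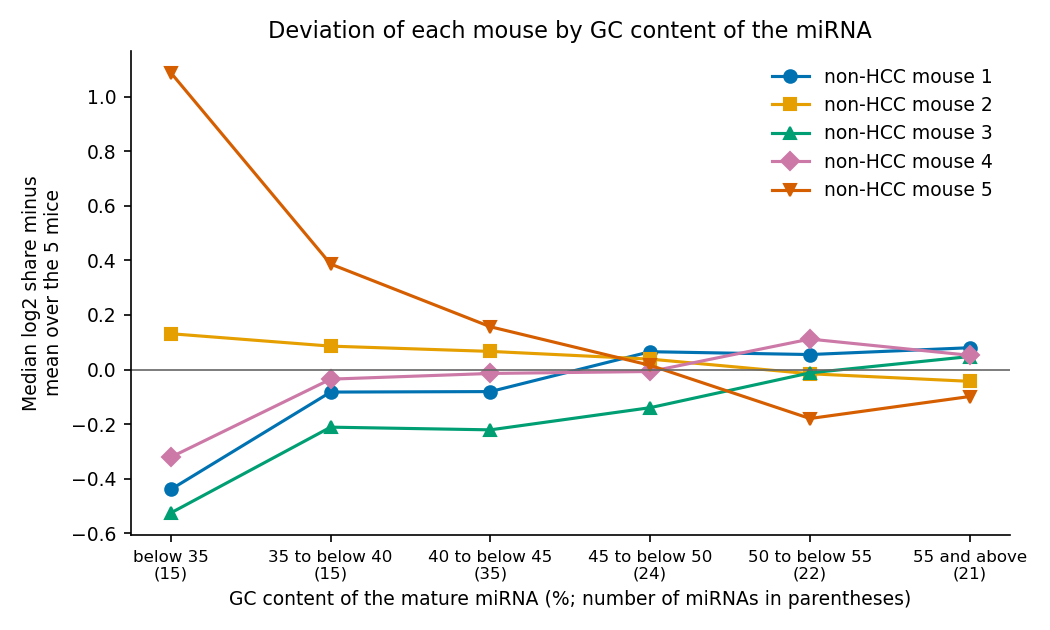
The median over miRNAs of the log2 share in a mouse minus its mean over the 5 mice, in 6 bins of GC content with the number of miRNAs in parentheses, with 1 line per mouse. Mouse 5 falls from 1.09 in the lowest bin to -0.10 in the highest, mouse 2 falls slightly, and mice 1, 3 and 4 rise from between -0.53 and -0.32.

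Mouse 5 was also the library with the fewest spike-in UMIs (364466 of UniSP2, against 596252 to 731761 in the others), and the part of RNA yield or capture in the GC pattern was not tested. MiR-144-3p, miR-144-5p, miR-15a-5p, miR-15b-5p and let-7f-5p, all 5 of which were named above, had their highest share in mouse 5. They were picked from the miRNAs named above, so that their number measures nothing. Over the 156 ranked miRNAs, mouse 5 had the highest share of 50 and the lowest of 48. Set against the mean of both spike-ins in place of all miRNA UMIs, all miRNAs together ranged 2.57-fold over the mice, the red cell list 2.10-fold, highest in mouse 5 against 7.62 to 11.2 UMIs per spike-in UMI in the others, and the myeloid and platelet list 5.18-fold. On that scale the muscle list was still highest in mouse 2 (0.154 UMIs per spike-in UMI) but mouse 5 (0.0595) was no longer the lowest, as mouse 4 was at 0.0562.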

How the data were processed

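Plasma miRNAs of 5 non-HCC male C3H mice were measured by small RNA sequencing (QIAseq miRNA libraries). The authors aligned the reads (Bowtie2 and the build GRCm38 are named in the submitters' processing notes, with no version), annotated miRNAs by miRBase, merged reads by barcode and deposited, for every mouse, the UMI count of each miRNA with no normalization. Columns were assigned by the mouse number in the labels. A table of F2 mice with 53 columns was not used here. The HCC mice entered no comparison.

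Shares are percentages of all miRNA UMIs of a mouse, spike-ins left out, with 10467560 to 13962539 UMIs per mouse. Values are mean ± SD over the mice, with Wilson 95% intervals where given. Intervals cover counting error only. The labels give 1 sample per mouse. Families share bases 2 to 8 of RefSeq mature sequences (GRCm38.p6). Gene places are from GENCODE M21.

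Arms were compared by edgeR 4.0.16 in R 4.3.3 (quasi-likelihood test, UMI counts of both arms, library size all miRNA UMIs of the mouse, mouse as block, Benjamini-Hochberg). The block pairs both arms of 1 library, so that the pairing comes from the design. The SE is the log2 ratio over the square root of F. On simulated counts of 474 hairpins the test recovered 37.2% of 164 arms changed 4-fold, 86.0% of the 57 with a mean of at least 100 UMIs, and 0% of its calls were false. Python 3.11.15, pandas 2.3.3, numpy 2.4.6 and scipy 1.17.1 were used for the rest.

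Named by rule were the first 20 miRNAs, the first 10 families, the 15 hairpins with the most UMIs, the 5 nearest to equal arms, hairpins unlike the leader of their miRNA number, the 5 highest and 5 lowest CVs from a mean share of 0.01%, and all list members. The miRNAs named from shared transcripts were added after the values were seen. The mice, lists and rules were chosen with earlier results of these data known. Alternatives were pooled UMIs, zeros set to 9, leaving out miR-16-5p or adding it to the red cell list, bases 2 to 7 as seed, spike-in and TMM scales, limma 3.58.1, DESeq2 1.42.0, other filters, no block and each mouse left out.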

Additional observations from a re-analysis of the deposited data

Results flagged for a closer look

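A search of 121 quantities for a mouse far from the other 4 (Dixon's criterion for 5 values, 0.71) found 15. Chance gives about 1 in 20 groups, but the 15 are not separate quantities and their count is not set against that share: miR-191-5p and its family are the same values, miR-126a-3p gives most of the endothelium list, and a miRNA above 0 in 1 mouse alone meets the criterion by construction. Mouse 5 was the highest in miR-144-3p (0.392%, next 0.178%), miR-155-5p (0.0260%, next 0.0134%) and miR-142b (0.0630%, next 0.0247%). It was the lowest in the miR-25-3p seed family (4.91%, next 6.04%) and in the log2 ratio of 3p over 5p of miR-92a (10.97, next 11.70).

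Mouse 2 was the highest in the endothelium list (1.58%, next 0.829%), in its member miR-126a-3p (1.32%, next 0.661%) and in the heart and slow muscle miRNA miR-208b-3p (0.00212%, next 0.000583%). Per spike-in UMI the endothelium list was at 0.634 in mouse 2 and at 0.536 in mouse 5, so that mouse 2 stood apart by share alone. The testis miRNAs miR-871-3p and the joined entry of miR-465a-3p, miR-465b-3p and miR-465c-3p, were above 0 in mouse 2 alone, at 7.93e-05% each, and miR-743a-3p in mouse 4 alone, at 7.39e-05%. These 3 rest on 10 or 11 UMIs, at the lowest value that the table lists.

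Mouse 1 was the highest in miR-191-5p and in its single-member seed family (1.70%, next 1.41%). Mouse 3 was the highest in the log2 ratio of 3p over 5p of miR-486b (-4.92, next -5.19) and the lowest in that of miR-1306 (-1.81, next -0.999). The cause of these differences was not tested.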

How the results depend on the processing

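The direction and the side of the threshold were kept by 268 of 270 values of the named hairpins. The 2 exceptions were miR-345, which passed for 5p under DESeq2 (adjusted p = 0.0206) and with a filter of 100 UMIs (edgeR adjusted p = 0.0308). Without the replicate block, that is with both arms treated as unpaired, 344 hairpins were called in place of 303, of which 279 were shared, and no named hairpin changed its call. DESeq2 called 411, limma 427, TMM factors 302, the spike-in scale 305, no filter 271, a filter of 100 UMIs 208, and leaving out hairpins of shared arm sequence 267. With each mouse left out in turn, 235 to 255 were called. All 303 kept their sign under every alternative that tested them. Of 341 values of shares and counts, 320 moved by less than 1 SD between mice or 1.5-fold. The rest were 18 shares recomputed without miR-16-5p, which raises the share of every other miRNA (the first 10 then held 59.8%), the red cell list at 52.2% with miR-16-5p counted in it, and the median CV, which was 45.7% on the spike-in scale and 51.6% with no minimum share, against 18.8%. With each mouse left out in turn the median CV was 16.5% to 20.4% and the share of miR-16-5p 27.3% to 28.0%. The endothelium list was 0.763% without mouse 2, against 0.927%, and the muscle list 0.160% against 0.205%. Depth limits the hairpins with few UMIs, since counts under 10 are listed as 0; 80 of the tested hairpins had a lower arm at 0 in all mice, for which no fold is given.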

Other observations

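The 2 arms of a hairpin did not always vary together between mice. The ratio of miR-144-3p to miR-144-5p was 4.97, 1.36, 2.98, 3.76 and 2.26 in mice 1 to 5, and that of miR-126a-3p to miR-126a-5p was 2.64, 5.06, 4.22, 3.20 and 3.89. The ratio of miR-223-3p to miR-142a-3p, both of myeloid cells, was 0.767, 0.416, 0.860, 1.08 and 0.527, so that mice 2 and 5 were low. The ratio of miR-133a-3p to miR-1a-3p was 0.709 in mouse 5 and 1.06 to 1.36 in the others. Their causes were not tested.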
